A study of Homo sapiens with 10 samples.

Results

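The PHLDA1 locus was taken as all regions that the deposited annotation assigned to the gene symbol PHLDA1 (gene ID 22822), which gave 28 of 67387 annotated regions. The assignment goes by distance to the start of a gene and does not show which gene an enhancer serves. All 28 regions were 502 bp wide and all passed the filter on low counts. They lay on chromosome 12 of hg38 between 75943632 and 76032253, an interval of 88622 bp. The locus was selected on earlier results of these same counts, so levels, differences and calls at PHLDA1 are given as a description, with no p-value for a region.

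PHLDA1 encodes a pleckstrin homology-like domain protein whose transcription is induced by growth factor signalling through the MAPK pathway, and it is commonly listed among the output genes of that pathway in tumours driven by EGFR or RAS. The protein is known as a feedback inhibitor of receptor tyrosine kinases. H3K27ac, acetylation of lysine 27 of histone H3, marks active promoters and enhancers.

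The mark was profiled by ChIP-seq, in which chromatin is immunoprecipitated and its DNA sequenced, in the human cell line H1975. This established line comes from a lung adenocarcinoma and carries mutant EGFR, and all groups share it. DMSO cells spent 21 days without drug and then 3 days in DMSO. Osimertinib DTPs, the drug-tolerant persister cells left after long exposure, were held at 500 nM osimertinib, an inhibitor of mutant EGFR, over 24 days. Cells of the group osimertinib DTP + AZD5153 had 21 days of osimertinib at 500 nM, after which they received AZD5153 at 150 nM for 3 days. AZD5153 is a bivalent inhibitor of BET bromodomains. Whether osimertinib was continued in those 3 days is not stated in the labels. Each group had 3 libraries, called biological triplicates in the labels, and chromatin that was not immunoprecipitated gave 1 pooled input library. All libraries come from a single cell line, and each averages a culture, so fewer cells carrying the mark and less of it per cell cannot be told apart.

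Total counts ran from 6263443 to 10463351 per H3K27ac library and were 1870885 for the input. Replicate 3 of osimertinib DTP + AZD5153 stood apart. Across all 169637 counted regions its Spearman coefficients with replicates 1 and 2 were 0.430 and 0.354, against 0.818 to 0.898 for all other replicate pairs of a group. Counts of calls and medians at PHLDA1 that involve it are therefore also given without it. Fold changes of single regions, group means and overlaps between groups mostly include it. The names inside the peak list of osimertinib DTP replicate 3 read H1875, whereas its label reads H1975. Promoter regions of the epithelial genes KRT8, EPCAM and KRT19 held at least 525, 260 and 130 counts in every library, but those of KRT18 and CDH1 as few as 51 and 44. Among lung lineage genes the promoter counts were 87 to 283 at NKX2-1, 62 to 305 at NAPSA and 11 to 114 at SFTPB. The leukocyte genes PTPRC and CD3E and the alveolar gene SFTPC had no annotated region and the endothelial gene PECAM1 none at its promoter. Promoter counts were 43 to 320 at COL1A1 (1 region), 18 to 267 at PDGFRB (4 regions) and 75 to 247 at CDH5 (2 regions). Genes of fibroblasts and endothelium were thus not without signal in the line. The lowest PDGFRB value was not clear of the input, which had a median of 10 counts per region. The number of promoter regions differed between the marker genes.

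PHLDA1 is read from the minus strand, with its RefSeq gene model at chromosome 12, 76025447 to 76031776, so the regions extend from its start downstream, towards lower coordinates, as far as 87.5 kb. In the deposited classes, 2 regions lay within 1 kb of the start and are called the promoter here, 1 was classed as promoter at 2 to 3 kb, 2 lay in the 3′ UTR, 1 was classed as downstream at 2 to 3 kb, 8 were distal intergenic and 14 lay in an intron of another transcript. Merged where they came within 1000 bp of each other, the 28 regions formed 11 blocks. Of 15633 genes with an annotated region, 143 had 28 or more, and the median gene had 2.

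The sequence just before the start is shown because it lies wholly inside a promoter region that carried the mark in all 3 groups. It covers 250 bases from RefSeq, build GRCh38.p14, on the minus strand and 5′ to 3′, and its last base is the one before the start. The capitals mark a core of ETS factors (CGGAAG, 47 to 42 bases before the start) and a GC box (GGGCGG, 36 to 31 bases before it).
PHLDA1, chr12:76031777-76032026: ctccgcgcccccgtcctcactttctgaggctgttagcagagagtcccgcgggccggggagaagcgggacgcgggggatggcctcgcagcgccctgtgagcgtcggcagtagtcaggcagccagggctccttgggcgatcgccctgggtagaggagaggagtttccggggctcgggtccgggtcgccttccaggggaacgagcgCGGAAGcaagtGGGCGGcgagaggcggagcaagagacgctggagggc
The stretch is 70.4% G and C. Searched on both strands, GGGCGG was found in 42.6% and CGGAAG in 16.5% of 35116 promoters of the same length. The letters of an AP-1 site (TGANTCA, in 6.57% of promoters), a CRE (TGACGTCA, in 1.65%), a TEAD site (GGAATG, in 11.9%), a CCAAT box (CCAAT, in 32.0%), a TATA box (TATAAA, in 10.7%) and an E-box (CACGTG, in 6.34%) were not in this window. These are matches of letters only. The 2 searched motifs that matched do not overlap each other.

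Both promoter regions carried H3K27ac in every group, and neither was called in any comparison. The region over the start (76031752 to 76032253) had the highest mean count of the locus. It held 329, 312 and 269 counts in replicates 1 to 3 of DMSO, 252, 475 and 161 in those of osimertinib DTP, and 378, 292 and 453 in those of osimertinib DTP + AZD5153. In CPM, counts scaled to a common library size with TMM factors, these were 29.8, 32.2 and 27.1, then 24.1, 66.1 and 16.2, then 37.9, 34.0 and 87.6. The osimertinib DTP libraries lay on both sides of DMSO, and all 3 osimertinib DTP + AZD5153 libraries lay above all DMSO libraries, with replicate 3 the highest of all. That separation rested on the TMM factors. Osimertinib DTP + AZD5153 replicate 2 had 292 of 9442505 counts in tested regions, a smaller part than the 329 of 9321024 in DMSO replicate 1. The means were 29.7 ± 2.59 for DMSO, 35.5 ± 26.8 for osimertinib DTP and 53.1 ± 29.9 for osimertinib DTP + AZD5153 (SD, n = 3). The log2 fold change of osimertinib DTP against DMSO was 0.25 ± 0.57 (SE) and was not called, and its sign rested on osimertinib DTP replicate 2, without which it was -0.50. It was also below 0 with 2 other methods, at -0.30 with voom and library quality weights and at -0.20 with a loess offset. For osimertinib DTP + AZD5153 against DMSO it was 0.84 ± 0.58, not called, and 0.27 without replicate 3.

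The other promoter region lay 0.4 kb inside the gene (76030713 to 76031214). It held 392, 357 and 302 counts for DMSO, 183, 219 and 164 for osimertinib DTP, and 394, 286 and 392 for osimertinib DTP + AZD5153. In CPM these were 35.6, 36.9 and 30.4 for DMSO, 17.5, 30.5 and 16.5 for osimertinib DTP, and 39.5, 33.3 and 75.8 for osimertinib DTP + AZD5153. Osimertinib DTP replicate 2 thus reached the lowest DMSO library, and all osimertinib DTP + AZD5153 libraries were above those of osimertinib DTP. The log2 fold changes were -0.67 ± 0.51 for osimertinib DTP against DMSO and 1.20 ± 0.51 for osimertinib DTP + AZD5153 against osimertinib DTP, and neither was called. The antisense gene PHLDA1-AS1 (76030494 to 76031378) overlaps this region, the divergent gene PHLDA1-DT (76031813 to 76034389) overlaps the one over the start, and a histone mark cannot be divided among them.

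**Figure D1:**
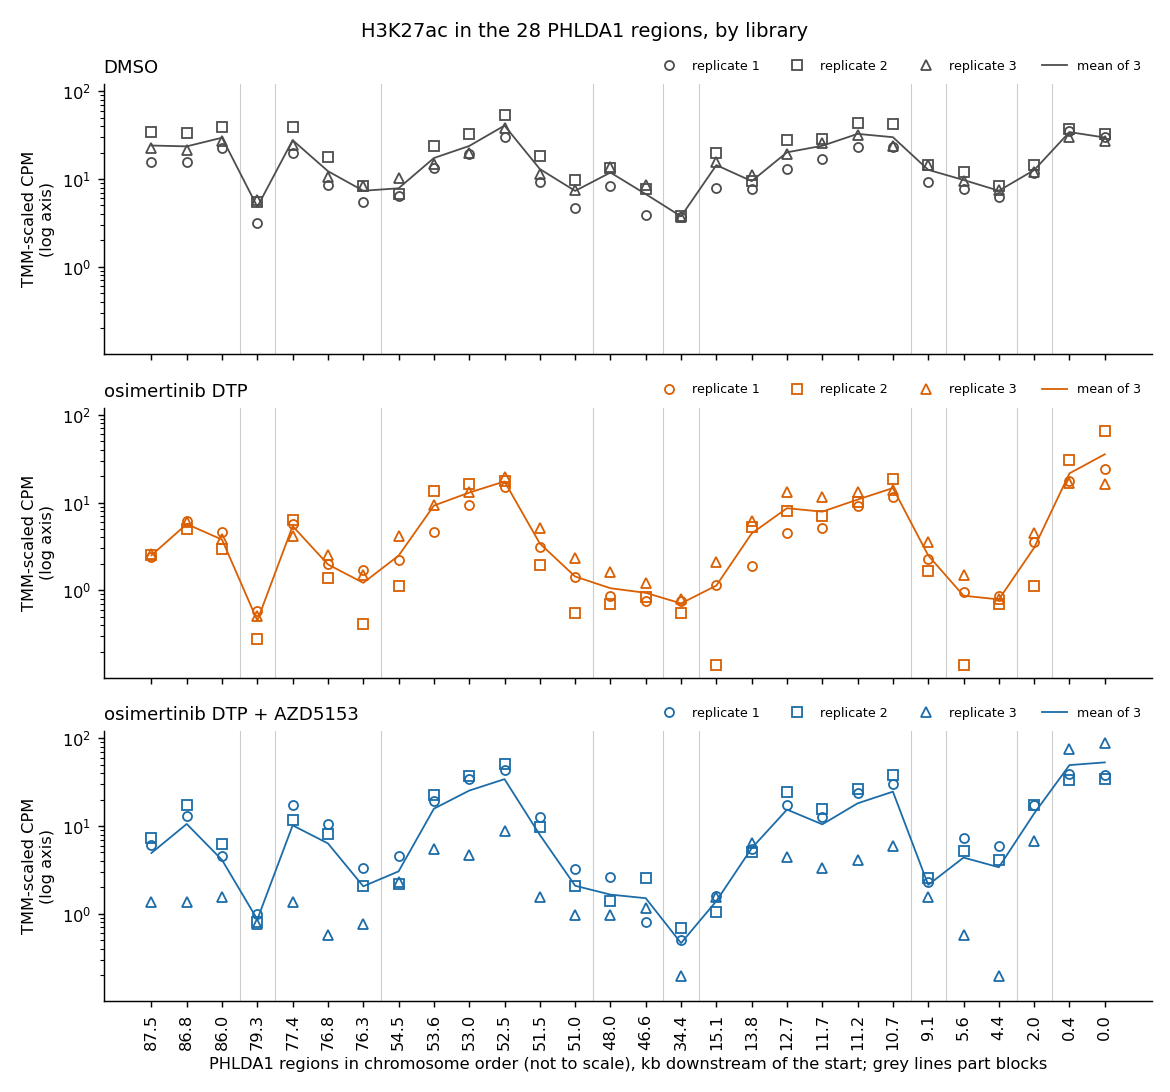
H3K27ac level (TMM-scaled CPM, log axis) of the 28 PHLDA1 regions in chromosome order, labelled by kb downstream of the start, with 1 panel per group, a symbol per replicate and a line through the mean. In osimertinib DTP the line lies closest to the DMSO level at 0.0 and 0.4 kb, and replicate 3 of osimertinib DTP + AZD5153 (triangles) lies below replicates 1 and 2 over most of the locus but above them at the start.

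Outside the promoter, the fitted H3K27ac level of all 26 PHLDA1 regions was lower in osimertinib DTP than in DMSO, and 15 of them were called. The first comparison sets osimertinib DTP against DMSO. Of the 28 regions, 15 fell and 0 rose in osimertinib DTP (edgeR, Benjamini-Hochberg adjusted p under 0.05 over all tested regions), where 5.13% of all 157919 tested regions fell and 5.58% rose. The fitted log2 fold change was below 0 at 27 of 28 regions, with a median of -2.18 and a range of -3.61 to 0.25, against a median of 0.15 over all tested regions. In CPM the 3 osimertinib DTP libraries were all below the 3 DMSO libraries at 24 of 28 regions, and the same held for 18.9% of all tested regions. All 15 called regions were among the 26 outside the promoter, and in these deposited classes 10.3% of annotated regions fell, against 1.85% of those within 1 kb of a start. Without osimertinib DTP + AZD5153 replicate 3, which shares the filter, the scaling and the estimate of spread with these groups, 22 regions fell, all 15 among them, where 12.7% of all tested regions fell.

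The number of calls rested on single libraries, while the direction outside the promoter did not. It was 1 without DMSO replicate 2, 5 without DMSO replicate 3, osimertinib DTP replicate 1 or osimertinib DTP replicate 2, 6 without osimertinib DTP replicate 3, and 11 without DMSO replicate 1, in fits in which 0.294% to 2.83% of all tested regions fell. Over all 9 such fits the median log2 fold change of the 28 regions stayed between -2.33 and -1.90, and all 26 regions outside the promoter stayed below 0. With the replicate number as a block, 12 of the 15 regions were called, where 5.07% of all tested regions fell.

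**Figure D2:**
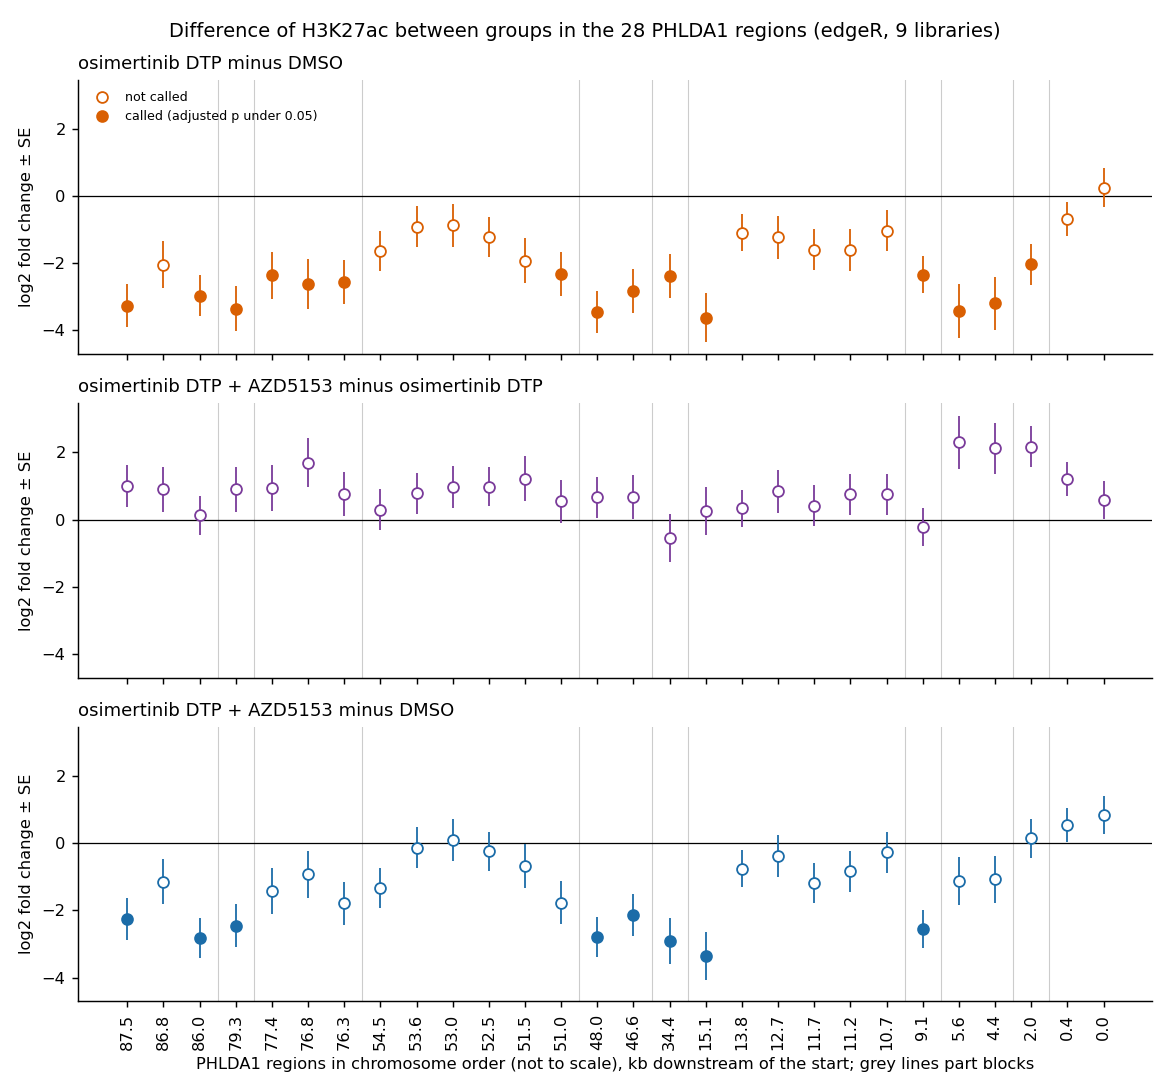
Log2 fold change with its standard error at each of the 28 PHLDA1 regions, in chromosome order, from 1 edgeR fit of 9 libraries; filled points were called. In the top panel the lowest point is -3.61 at 15.1 kb, and in the middle panel the highest points, none of them called, lie at 2.0 to 5.6 kb, over the gene itself.

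Within the gene, 3 regions lay more than 1 kb from the start, and they were low in osimertinib DTP and nearer the DMSO level in replicates 1 and 2 of osimertinib DTP + AZD5153. The region 2.0 kb from the start (76029067 to 76029568) held 128, 139 and 119 counts for DMSO, 37, 8 and 45 for osimertinib DTP, and 175, 150 and 35 for osimertinib DTP + AZD5153. It fell in osimertinib DTP, with a log2 fold change of -2.03 ± 0.61. Replicates 1 and 2 of osimertinib DTP + AZD5153 were above every DMSO library, and replicate 3, from the smallest library, lay between the groups in CPM, at 6.76 against at most 4.53 for osimertinib DTP and at least 11.6 for DMSO.

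The other 2 lay in the 3′ UTR. At 4.4 kb (76026715 to 76027216) the counts were 69, 81 and 74 for DMSO, 9, 5 and 8 for osimertinib DTP, and 59, 35 and 1 for osimertinib DTP + AZD5153. At 5.6 kb (76025479 to 76025980) they were 84, 117 and 95, then 10, 1 and 15, then 73, 45 and 3. The input, which had fewer counts over the counted regions as a whole, held 11 and 6. Both regions fell in osimertinib DTP, with log2 fold changes of -3.19 ± 0.78 and -3.43 ± 0.81. In both regions replicates 1 and 2 of osimertinib DTP + AZD5153 were above all osimertinib DTP libraries and below all DMSO libraries, and replicate 3 was at or near the bottom.

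Just beyond the gene lay the region at 9.1 kb (76022033 to 76022534), which was low in both treated groups. It held 103, 140 and 143 counts for DMSO, 24, 12 and 35 for osimertinib DTP, and 23, 22 and 8 for osimertinib DTP + AZD5153. The log2 fold change against DMSO was -2.34 ± 0.56 for osimertinib DTP and -2.55 ± 0.57 for osimertinib DTP + AZD5153, and both were called. No treated library came near the lowest DMSO library.

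The block at 10.7 to 15.1 kb (76015986 to 76020925) was 1 of 2 strong distal blocks, with 6 regions. Its summed counts were 1017, 1666 and 1267 for DMSO, 349, 353 and 596 for osimertinib DTP, and 905, 951 and 133 for osimertinib DTP + AZD5153. The mean level in osimertinib DTP was 36.4% of the DMSO mean, that of replicates 1 and 2 of osimertinib DTP + AZD5153 was 77.1%, and replicate 3 was at 19.7%. Of its 6 regions, 5 were not called in either comparison with DMSO.

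The exception was the edge of that block at 15.1 kb (76015986 to 76016487), the region with the largest fall of the locus. It held 86, 192 and 155 counts for DMSO, 12, 1 and 21 for osimertinib DTP, and 16, 9 and 8 for osimertinib DTP + AZD5153. Its log2 fold change against DMSO was -3.61 ± 0.72 for osimertinib DTP and -3.36 ± 0.72 for osimertinib DTP + AZD5153. The input, which had fewer counts over the counted regions as a whole, held 13 counts. The treated counts were thus near the input, which limits how well the size of the fall is measured. All treated libraries were far below all DMSO libraries here, also replicates 1 and 2 of osimertinib DTP + AZD5153, in which the rest of the block had 43 to 325 counts per region.

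At 34.4 kb a single region (75996674 to 75997175) formed a block of its own and was the weakest of the locus in DMSO. Its counts were 41, 37 and 37 for DMSO, 8, 4 and 8 for osimertinib DTP, and 5, 6 and 1 for osimertinib DTP + AZD5153. It fell in both treated groups, with log2 fold changes of -2.37 ± 0.66 and -2.92 ± 0.69. The input, which had fewer counts over the counted regions as a whole, held 7 counts.

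The regions at 46.6 and 48.0 kb fell in both treated groups as well. The one at 46.6 kb (75984544 to 75985045) held 43, 75 and 85 counts for DMSO, 8, 6 and 12 for osimertinib DTP, and 8, 22 and 6 for osimertinib DTP + AZD5153. The one at 48.0 kb (75983108 to 75983609) held 91, 131 and 137, then 9, 5 and 16, then 26, 12 and 5. Their log2 fold changes against DMSO were -2.82 ± 0.64 and -3.46 ± 0.63 for osimertinib DTP, and -2.14 ± 0.62 and -2.80 ± 0.60 for osimertinib DTP + AZD5153, all called. The input, which had fewer counts over the counted regions as a whole, held 12 and 10, near most of the treated counts.

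The second strong distal block, at 51.0 to 54.5 kb (75976562 to 75980633, 6 regions), kept more of its signal. Its summed counts were 917, 1405 and 1009 for DMSO, 375, 367 and 535 for osimertinib DTP, and 1168, 1072 and 122 for osimertinib DTP + AZD5153. Osimertinib DTP was at 42.7% of the DMSO mean, replicates 1 and 2 of osimertinib DTP + AZD5153 at 110.0%, inside the DMSO range, and replicate 3 at 21.5%. Only its edge region at 51.0 kb (75980132 to 75980633) was called, with 52, 94 and 75 counts for DMSO, 15, 4 and 23 for osimertinib DTP, and 32, 18 and 5 for osimertinib DTP + AZD5153. Its log2 fold change in osimertinib DTP was -2.32 ± 0.65, and the 5 regions beside it had log2 fold changes of -1.92 to -0.87.

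The far end held 7 regions in 3 blocks, and 6 of them fell in osimertinib DTP. The block at 76.3 to 77.4 kb (75953682 to 75955320) had 373, 626 and 433 counts for DMSO, 98, 59 and 81 for osimertinib DTP, and 310, 189 and 14 for osimertinib DTP + AZD5153. Its 3 regions all fell in osimertinib DTP, with log2 fold changes of -2.36 ± 0.70, -2.62 ± 0.75 and -2.55 ± 0.66 at 77.4, 76.8 and 76.3 kb. None was called in osimertinib DTP + AZD5153, whose replicates 1 and 2 were at 56.0% of the DMSO mean and replicate 3 at 5.72%.

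The single region at 79.3 kb (75951809 to 75952310) was weak in DMSO, with 35, 53 and 58 counts, and held 6, 2 and 5 for osimertinib DTP and 10, 7 and 4 for osimertinib DTP + AZD5153. It fell in both treated groups, with log2 fold changes of -3.35 ± 0.66 and -2.45 ± 0.63. The input, which had fewer counts over the counted regions as a whole, held 10 counts, which no treated library exceeded.

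The outermost block, at 86.0 to 87.5 kb (75943632 to 75945583), had 594, 1034 and 705 counts for DMSO, 137, 75 and 123 for osimertinib DTP, and 238, 264 and 22 for osimertinib DTP + AZD5153. Its first and last regions fell in both treated groups. At 87.5 kb (75943632 to 75944133) the counts were 171, 332 and 223 for DMSO, 25, 18 and 26 for osimertinib DTP, and 61, 63 and 7 for osimertinib DTP + AZD5153. The log2 fold changes against DMSO there were -3.26 ± 0.65 and -2.26 ± 0.62. At 86.0 kb (75945082 to 75945583) the counts were 249, 380 and 267, then 48, 21 and 38, then 46, 53 and 8, with log2 fold changes of -2.96 ± 0.61 and -2.82 ± 0.60. The region between them, at 86.8 kb, was not called.

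**Figure D3:**
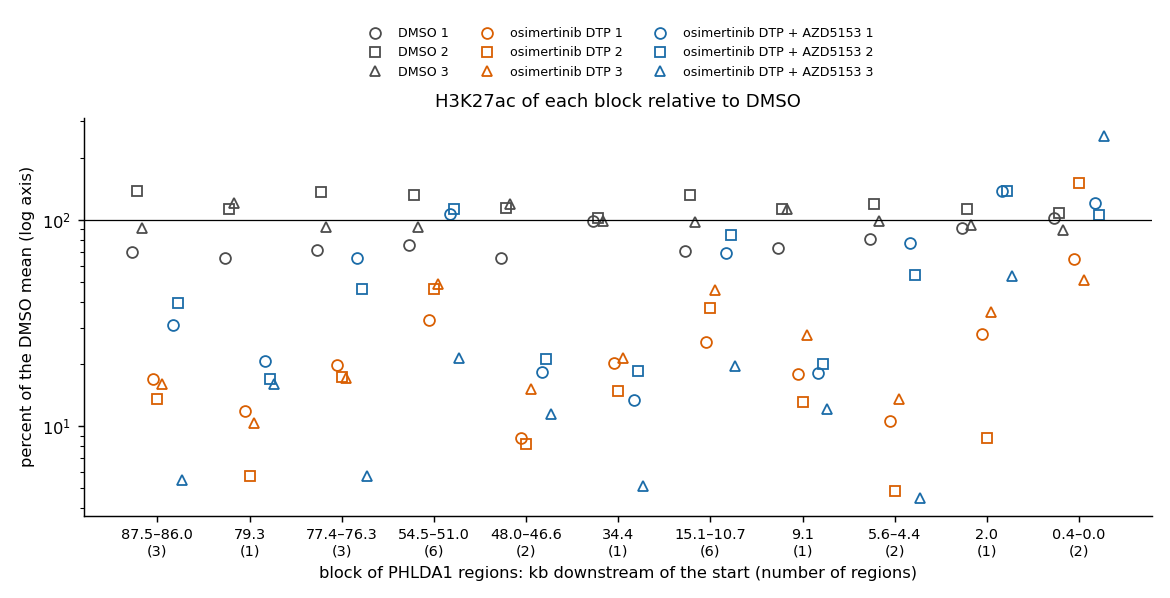
H3K27ac of the 11 blocks of PHLDA1 regions as percent of the DMSO mean (log axis), 1 symbol per library, with the number of regions per block in brackets. Replicates 1 and 2 of osimertinib DTP + AZD5153 are near the DMSO libraries at 51.0 to 54.5 kb (mean 110.0%) and at 2.0 kb (138%), but lie among the osimertinib DTP libraries at 34.4 and 9.1 kb (15.97% and 19.1%) and little above them at 46.6 to 48.0 kb (19.8%, against a mean of 10.7% for osimertinib DTP).

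The second comparison sets osimertinib DTP + AZD5153 against osimertinib DTP. The labels give 21 days of osimertinib and then 3 days of AZD5153 for the former, and 24 days of osimertinib for the latter. Since continued osimertinib in those 3 days is not stated, the groups may differ in both drugs. An effect of AZD5153 separate from a stop of osimertinib was not tested. No PHLDA1 region was called higher or lower in osimertinib DTP + AZD5153 than in osimertinib DTP, and 0.0% of all tested regions were called in either direction. The fitted log2 fold change was above 0 at 26 of 28 regions, with a median of 0.77 against 0.06 over all tested regions. An unadjusted p under 0.05 (edgeR) was found at 5 of the 28 and at 7013 of all 157919 tested regions. DESeq2 also called 0 of the 28, where it called 21 higher and 73 lower of all 157919 tested regions. Voom with library quality weights called 8 higher, where 1.62% of all tested regions were called higher. In CPM the 3 osimertinib DTP + AZD5153 libraries were all above the 3 osimertinib DTP libraries at 3 of 28 regions, which was so for 2.83% of all tested regions.

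Without osimertinib DTP + AZD5153 replicate 3, 3 regions were called higher, where 0.0637% of all tested regions were. They were 3 of the 4 regions that lie wholly inside the gene, at 5.6, 4.4 and 2.0 kb, with log2 fold changes of 2.78 ± 0.57, 2.64 ± 0.51 and 2.49 ± 0.50, while the one at 0.4 kb had 0.76 ± 0.44. The median over the 28 regions was then 1.14, and 26 were still above 0. Replicate 3 itself was below the osimertinib DTP mean in most blocks but not at the start, where its summed promoter level of 163 CPM was above the 77.3 and 67.2 CPM of replicates 1 and 2.

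Against DMSO, 8 PHLDA1 regions fell and 0 rose in osimertinib DTP + AZD5153, where 9.01% of all tested regions fell and 9.05% rose. The 8 regions were those at 9.1, 15.1, 34.4, 46.6, 48.0, 79.3, 86.0 and 87.5 kb, and all 8 were among the 15 that fell in osimertinib DTP, a comparison that shares the DMSO libraries. The median log2 fold change of the 28 regions was -1.13, against 0.23 over all tested regions with TMM scaling and -0.02 without it. With TMM scaling, all 3 libraries were below all DMSO libraries at 16 of 28 regions, as at 19.0% of all tested regions. They were above all DMSO libraries at 1, the one over the start, as at 14.4%. Without replicate 3, 10 regions fell, all 8 among them, where 17.3% of all tested regions fell, and the median was -0.71. The log2 fold changes of those 8 regions then ran from -3.43 at 15.1 kb to -1.85 at 87.5 kb.

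Summed over the 28 regions, the level was 382, 637 and 476 CPM for DMSO, 144, 221 and 182 CPM for osimertinib DTP, and 378, 390 and 232 CPM for osimertinib DTP + AZD5153. The means were 499 ± 129, 182 ± 38.8 and 333 ± 88.1 CPM (SD, n = 3). The order of the means was thus DMSO, osimertinib DTP + AZD5153, osimertinib DTP. DMSO and osimertinib DTP + AZD5153 overlapped, and osimertinib DTP lay below both, although without TMM scaling its range of 172 to 204 CPM overlapped the 195 CPM of osimertinib DTP + AZD5153 replicate 3.

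The balance between promoter and distal regions can be read within a library, free of scaling between libraries. The promoter held 17.1%, 10.8% and 12.1% of the PHLDA1 counts for DMSO, 28.9%, 43.6% and 18.02% for osimertinib DTP, and 20.5%, 17.2% and 70.5% for osimertinib DTP + AZD5153, against 6.45% of the input counts. Every osimertinib DTP library was above every DMSO library. The 70.5% of replicate 3 (exact binomial 95% interval 67.8% to 73.0%) set it far from replicates 1 and 2. Outside the promoter the summed level was 435 ± 126 CPM for DMSO, 125 ± 23.3 CPM for osimertinib DTP, and 301, 323 and 68.4 CPM for osimertinib DTP + AZD5153.

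A second share, chosen after its values were seen, describes how much of the distal signal lay in the 2 strong distal blocks. Of the counts outside the promoter, those blocks held 55.3%, 55.8% and 54.7% for DMSO, 67.7%, 80.3% and 76.5% for osimertinib DTP, and 69.1%, 72.9% and 72.0% for osimertinib DTP + AZD5153. All treated libraries were above all DMSO libraries, replicate 3 of osimertinib DTP + AZD5153 included (exact 95% interval 67.0% to 76.6%), and the input share was 47.6%. Outside the promoter, these blocks kept the most of their DMSO level in osimertinib DTP (42.7% and 36.4%). A higher share in osimertinib DTP thus follows from the choice of blocks, and the share is a description only. The regions with the largest falls of the locus, at 15.1 and 48.0 kb, were also set against strong regions that were not called, at 10.7 and 52.5 kb. A lower ratio in osimertinib DTP follows from that choice, so these ratios are a description only. The region at 48.0 kb held 27.4%, 25.0% and 36.5% of the count of the region at 52.5 kb for DMSO, 5.70%, 3.97% and 8.25% for osimertinib DTP, and 6.03%, 2.75% and 11.1% for osimertinib DTP + AZD5153. For the regions at 15.1 and 10.7 kb, at either end of 1 block, the ratio was 33.3% to 65.1% for DMSO, 0.752% to 15.3% for osimertinib DTP and 2.77% to 25.8% for osimertinib DTP + AZD5153. In osimertinib DTP + AZD5153 replicates 1 and 2 these strong regions were thus nearer their DMSO level than the regions at 48.0 and 15.1 kb were.

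**Figure D4:**
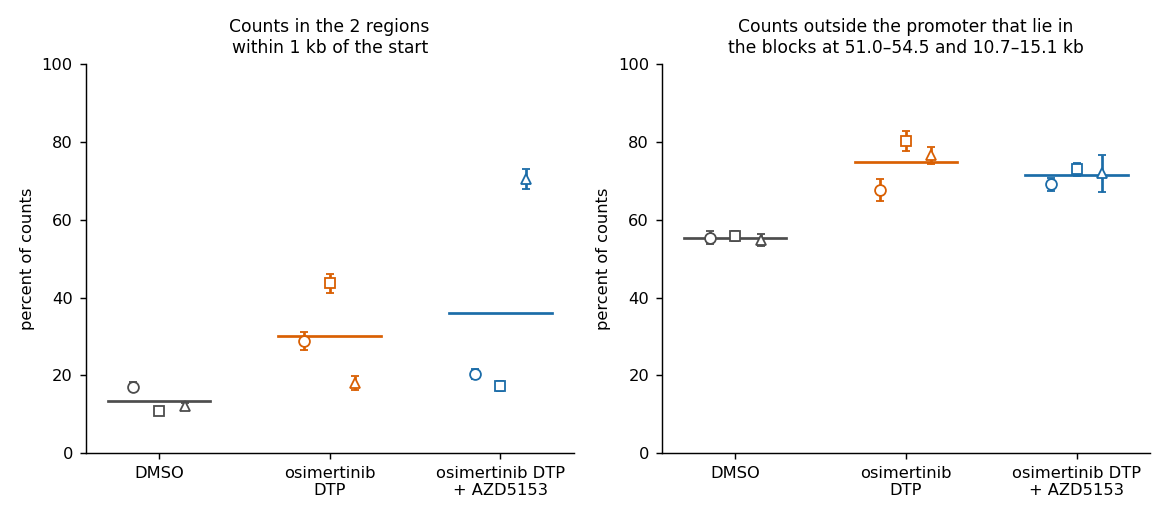
Share of the PHLDA1 counts in both promoter regions (left) and share of the counts outside the promoter that lie in the blocks at 51.0 to 54.5 and 10.7 to 15.1 kb (right), per library, with exact binomial 95% intervals and a line at the mean of each group. The share on the right was chosen after its values were seen. There the DMSO libraries sit at 54.7% to 55.8% and the treated libraries at 67.7% to 80.3%. On the left replicate 3 of osimertinib DTP + AZD5153 is alone at 70.5%.

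Peaks that were called by the authors in each library separately gave another view of the same reads. All 28 regions overlapped a peak in all 3 DMSO lists. In osimertinib DTP 12, 15 and 18 regions did, and in osimertinib DTP + AZD5153 24, 23 and 10. The share of all annotated regions that overlapped a peak is not given here, so these numbers describe the locus only. The regions at 15.1, 34.4, 46.6 and 79.3 kb overlapped no peak in any treated list. The 3 regions inside the gene at 2.0, 4.4 and 5.6 kb, overlapped a peak in 2, 0 and 0 osimertinib DTP lists and in 3, 2 and 2 lists of osimertinib DTP + AZD5153. Peaks covered 29.7%, 34.5% and 36.5% of the interval for DMSO, 10.0%, 12.4% and 16.2% for osimertinib DTP, and 23.4%, 21.8% and 7.90% for osimertinib DTP + AZD5153. The lists as a whole held 54188 to 70227 peaks, with 57477 in that of osimertinib DTP + AZD5153 replicate 3.

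**Figure D5:**
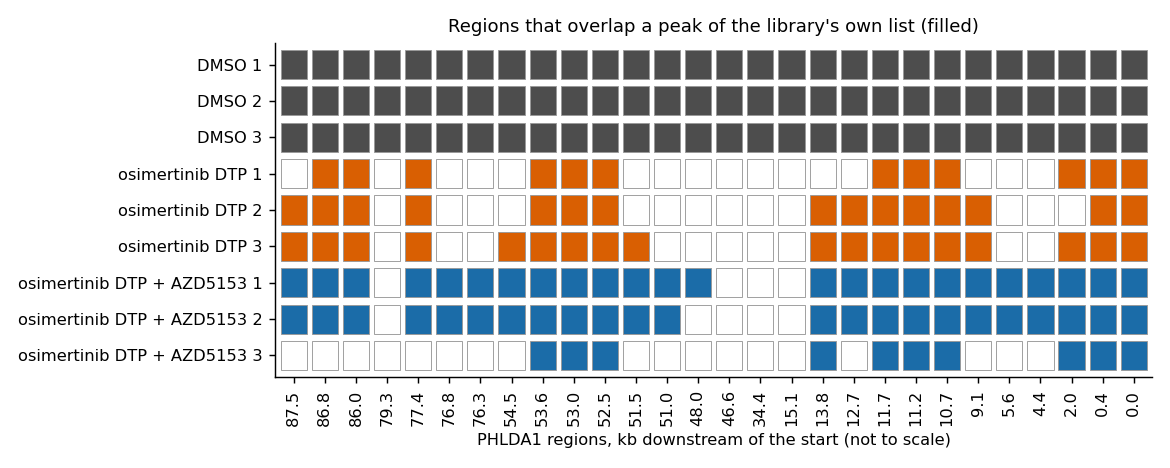
Overlap of the 28 PHLDA1 regions (columns, kb downstream of the start) with the peaks of each library's own list (rows), filled where at least 1 bp overlaps. All 28 columns are filled in DMSO, and the gaps of osimertinib DTP at 4.4 to 5.6, 51.0 and 76.3 to 76.8 kb are filled in replicates 1 and 2 of osimertinib DTP + AZD5153, while those at 15.1, 34.4 and 46.6 kb stay empty.

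The strongest peak of the interval had a fold enrichment over background, as the authors' peak caller gave it, of 36.8, 40.3 and 30.3 for DMSO, 18.4, 58.3 and 21.0 for osimertinib DTP, and 41.9, 42.2 and 62.1 for osimertinib DTP + AZD5153. In DMSO replicate 1, in the 3 osimertinib DTP lists and in replicates 1 and 3 of osimertinib DTP + AZD5153 that peak lay at the start of the gene or just inside it. In DMSO replicates 2 and 3 it was instead the peak over the regions at 9.1 to 13.8 kb, and in osimertinib DTP + AZD5153 replicate 2 the one around 52.5 kb.

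The low values reached beyond the regions assigned to PHLDA1. The full count table holds 11 regions between the first and the last PHLDA1 region that have no gene assigned, of which 10 were tested, 2 fell in osimertinib DTP, 8 had a log2 fold change below 0 and the median was -2.12. A further 23 such regions lay up to 150 kb beyond the outermost PHLDA1 region. Of these 22 were tested, 8 fell in osimertinib DTP, with a median of -2.01, and 5 fell and 1 rose in osimertinib DTP + AZD5153 against DMSO. Over all tested regions 5.13% fell in osimertinib DTP, and 9.01% fell and 9.05% rose in osimertinib DTP + AZD5153. Without osimertinib DTP + AZD5153 replicate 3, 7 of the 11 and 15 of the 23 fell in osimertinib DTP, and 6 of the 11 and 6 of the 23 fell in osimertinib DTP + AZD5153 against DMSO, where 2 and 4 rose. In that fit 12.7% of all tested regions fell in osimertinib DTP, and 17.3% fell and 18.4% rose in osimertinib DTP + AZD5153 against DMSO. The annotated regions nearest to the locus on each side belonged to other promoters and were not called: NAP1L1, a nucleosome assembly protein gene 51911 bp away, had a log2 fold change of 1.04 ± 0.65 in osimertinib DTP, and KRR1, a gene of ribosome assembly 431951 bp away, had -0.56 ± 0.58.

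Other output genes of the MAPK pathway also had regions that fell in osimertinib DTP, many of them at promoters. The list, which was drawn up with earlier results known, had 9 genes besides PHLDA1, with 62 regions tested. Of these, 14 fell and 1 rose in osimertinib DTP against DMSO, with a median log2 fold change of -0.72, where 5.13% of all tested regions fell and 5.58% rose. Promoter regions gave 8 falls of 26 and all others 6 of 36, whereas PHLDA1 had 0 of 2 and 15 of 26, and the shares over all annotated regions of these classes were 1.85% and 10.3%. Against osimertinib DTP none was called in osimertinib DTP + AZD5153, where the fit called none of all tested regions, with a median of 0.58, and against DMSO 12 fell and 3 rose, with a median of -0.32, where 9.01% of all tested regions fell and 9.05% rose. Without osimertinib DTP + AZD5153 replicate 3, 23 fell and 3 rose in osimertinib DTP, 0 were called between the treated groups, with a median of 0.06 where PHLDA1 had 1.14, and 17 fell and 5 rose against DMSO. The shares over all tested regions in that fit were 12.7% lower and 14.2% higher in osimertinib DTP, and 17.3% lower and 18.4% higher in osimertinib DTP + AZD5153 against DMSO.

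Among feedback inhibitors, both regions of SPRY4, a Sprouty inhibitor of receptor signalling, fell in osimertinib DTP, with log2 fold changes of -3.48 and -2.91, and both are promoter regions. DUSP6, a phosphatase that acts on ERK, had 3 falls in 6 regions, among them both promoter regions, and DUSP4, a related phosphatase, had 4 in 10. None of the 4 regions of SPRY2 was called. Among the ETS factors, ETV4 had 2 falls and 1 rise in 4 regions and ETV5 1 fall in 3. The cell cycle gene CCND1 had no called region of 4, with values of -1.75 to -0.52. The ephrin receptor genes EPHA2 and EPHA4 had 2 falls in 25 regions and none in 4. Both EPHA2 falls were among its 21 regions outside the promoter, a share near the 10.3% of all annotated regions in those classes. In the PHLDA family, PHLDA3, a paralogue known as an inhibitor of AKT, had 10 regions with log2 fold changes of -0.31 to 0.57, none called, and PHLDA2 had no annotated region.

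The genes whose summed H3K27ac followed PHLDA1 most closely were ranked over the 9 libraries by the root mean square difference of centred log2(CPM + 1), among 4511 genes with at least 5 regions. They were GPAT3, an acyltransferase of glycerolipid synthesis (0.127), HSD52 (0.134), SH3KBP1, an adaptor in receptor endocytosis (0.204), DCBLD2, a transmembrane receptor (0.208), and SYN2, a synapsin (0.212), against a median of 0.792. None lies on chromosome 12. GPAT3 had 150 CPM for DMSO, 53.0 for osimertinib DTP and 86.9 for osimertinib DTP + AZD5153 on average. Without osimertinib DTP + AZD5153 replicate 3 these genes ranked 2, 1, 7, 10 and 5.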

How the data were processed

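H3K27ac ChIP-seq libraries of H1975 cells, 3 per group, and 1 pooled input were analysed. Reads were single-end, 75 nt long. The submitters' processing notes name BWA 0.7.17, MACS2 2.2.6, featureCounts 2.0.0, ChIPseeker 1.29.1 and hg38; parameters, the treatment of duplicate reads and the rule that selected the annotated regions are not given in the sources used here. The authors deposited raw read counts for 169637 regions of 502 bp, and a second table with the counts and annotation of 67387 of them, which were equal in both. The peak lists deposited by the authors, 1 per library, give fold enrichment as a ratio over background and p and q as −log10 values.

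The members and lists were chosen with earlier results of these data known. All regions of the full table were fitted in edgeR 4.0.16, with limma 3.58.1 and R 4.3.3, by filterByExpr (minimum count 10), TMM, and the quasi-likelihood test with robust estimation in 1 fit of 9 libraries with a mean per group. P-values were adjusted by the Benjamini-Hochberg method over all 157919 regions tested, and a region was called at an adjusted p under 0.05. The code was tested on simulated data. The p-values behind the calls measure the spread between replicates of 1 cell line. Intervals cover counting error only, since reads carried no molecular identifiers. Named regions were those within 1 kb of the start, the one with the highest mean count, every called region and the first and last along the chromosome. Alternatives changed the tool (DESeq2 1.42.0, or voom with library quality weights), the scaling (no TMM, or a loess offset), the regions (unfiltered, or annotated ones), the libraries fitted (those of the groups compared) or the threshold (0.01), besides subtraction of the scaled input, stricter peaks and leaving out each library in turn.

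Same-numbered libraries of DMSO and osimertinib DTP deviated together from their group means (Pearson correlation across regions 0.334, 0.355 and 0.324, each over the 0.1 set for pairing), so a replicate block was also fitted. What a replicate number stands for is not given in the labels. For osimertinib DTP + AZD5153 the correlations were 0.243, 0.026 and -0.240 with osimertinib DTP and -0.018, 0.553 and 0.362 with DMSO, which did not meet that rule.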

Additional observations from a re-analysis of the deposited data

How the results depend on the processing

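The number of PHLDA1 regions that fell in osimertinib DTP was 15, where 5.13% of all tested regions fell. Other fits gave 26 (voom with library quality weights, where 14.9% fell) and 5 (adjusted p under 0.01, where 1.1% fell). Leaving out 1 library at a time gave 1 to 22, where 0.294% to 12.7% fell. For osimertinib DTP + AZD5153 against osimertinib DTP, voom called 8 regions higher, where 1.62% of all tested regions were. Leaving out a library gave 0 to 3, where 0.0% to 0.0637% of all tested regions were higher. Against DMSO, 8 fell in osimertinib DTP + AZD5153, where 9.01% of all tested regions fell, and 5 at an adjusted p under 0.01, where 3.14% fell. Leaving out a library gave 5 to 10, where 2.76% to 17.3% fell, with 5 without DMSO replicate 2 (2.76%) or 3 (3.58%). The remaining alternatives stayed within 1.5 times. With the replicate number as a block, which pairs DMSO with osimertinib DTP, 12 of the 15 regions were called, where 5.07% of all tested regions fell. For osimertinib DTP + AZD5153 against DMSO 8 of 8 were called, where 9.63% fell, and against osimertinib DTP 0, where none of all tested regions was called. Of the log2 fold changes of named regions under the alternatives, 763 kept direction and side of the threshold, 73 lost their call and 14 gained one. The other 13 changed sign, none of them called. For osimertinib DTP against DMSO, the region at 0.0 kb went from 0.25 to -0.20 with a loess offset and -0.30 with voom, and leaving out a library gave -0.50 (without osimertinib DTP replicate 2) to 0.69. For osimertinib DTP + AZD5153 against osimertinib DTP, the region at 86.0 kb went from 0.13 to -0.0474 without TMM, -0.00843 with the loess offset and -0.00166 with the block, and leaving out a library gave -0.27 (without osimertinib DTP + AZD5153 replicate 2) to 0.50, also below 0 without osimertinib DTP replicate 2. Leaving out a library in the same comparison gave -0.26 (without osimertinib DTP replicate 2) to 0.98 at 15.1 kb and -0.46 to 0.0699 (without osimertinib DTP replicate 3) at 9.1 kb. For osimertinib DTP + AZD5153 against DMSO, the region at 2.0 kb went from 0.14 to -0.0519 without TMM, and leaving out a library gave -0.0567 to 0.46, below 0 without osimertinib DTP + AZD5153 replicate 1 or 2. The causes were not tested. When only the compared groups were fitted, the regions at 4.4, 34.4, 46.6 and 79.3 kb did not pass the filter for osimertinib DTP + AZD5153 against osimertinib DTP and gave no value. Subtracting input scaled by total count gave summed levels of 343 CPM in DMSO, 14.8 CPM in osimertinib DTP and 149.6 CPM in osimertinib DTP + AZD5153, and a promoter share of 16.8% in DMSO; no share could be given for the treated groups, whose distal counts were at or below the scaled input in at least 1 library. The totals cover counted regions only, so this overstates the input.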

Other observations

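Some of the lowest values near the locus lay outside the PHLDA1 regions, in regions with no gene assigned, named here after their values were seen. At 168.1 kb from the start (chromosome 12, 75863385 to 75863886) the counts were 129, 259 and 150 for DMSO, 5, 3 and 4 for osimertinib DTP, and 25, 8 and 0 for osimertinib DTP + AZD5153, a log2 fold change of -5.32 ± 0.87 for osimertinib DTP against DMSO. The neighbouring region at 168.8 kb held 135, 252 and 169, then 9, 8 and 9, then 23, 29 and 0.

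An adjacent pair of regions inside the PHLDA1 interval went the other way and was not called in the fit of 9 libraries. Without osimertinib DTP + AZD5153 replicate 3, 2 of the 11 unassigned regions of the interval rose in osimertinib DTP + AZD5153 against DMSO. Which of the 11 they were is not given here. At 37.2 kb (75994285 to 75994786) the counts were 12, 17 and 15 for DMSO, 12, 32 and 54 for osimertinib DTP, and 25, 74 and 1 for osimertinib DTP + AZD5153, beside an input count of 15. At 37.8 kb (75993774 to 75994275) they were 5, 13 and 9, then 8, 24 and 47, then 15, 54 and 0.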
